A study of Homo sapiens with 14 samples.

Results

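The genes described here are 44 genes of S phase and DNA replication, taken by name from the 36555 gene IDs of the deposited table. They encode the replicative helicase and its loading factors (16 genes), the sliding clamp, polymerases, primase and lagging strand enzymes (16), enzymes of nucleotide supply (4), proteins that copy chromatin and maintain DNA methylation (4), and regulatory and checkpoint proteins (4). RNA came from HT-29, an established human colorectal carcinoma cell line, labelled WT, and the study asked how inhibitors of ferroptosis act on cells driven into apoptosis by TNF. Control cells were kept in medium with 0.1% DMSO (3 libraries). The other groups received 20 uM ferrostatin-1 (2 libraries), 20 uM liproxstatin-1 (2), human recombinant TNF-a at 100 ug/ml as labelled (TNF, 2), TNF with ferrostatin-1 (3) or TNF with liproxstatin-1 (2), each for 72 h. DMSO is named in the labels of the controls alone. The replicates are labelled technical, from 1 cell line, so p-values measure only the spread between these libraries. Ferrostatin-1 is an aromatic amine ester and liproxstatin-1 a spiro-quinoxaline amine, and both trap the radicals that carry lipid peroxidation.

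Before S phase, the origin recognition complex, CDC6 and CDT1 load the MCM2 to MCM7 ring onto DNA, and CDC45 and the GINS complex turn that ring into the active helicase. Primase with polymerase alpha then lays primers, clamp loaders place PCNA, polymerases delta and epsilon extend the strands, and FEN1 and LIG1 finish the lagging strand. E2F transcription factors, held back by RB family proteins until late G1, are known to drive many of these genes, and dividing carcinoma cells express them strongly. In RNA from whole cultures, fewer cells in S phase and less RNA per cell in S phase cannot be told apart.

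Promoter letters are shown first as a description, and their part in the changes of these genes was not tested. RefSeq promoters (GRCh38.p14, 250 bases before to 50 bases after the start) matched 38 of the 44 genes, and GINS4, MCM4, MCM5, POLD3, RPA2 and WDR76 had none in the table. Each stretch runs 5′ to 3′ on the gene's strand from 100 bases before the start to 20 bases from it, for the genes with the smallest p in the comparison that called most members. Capitals mark E2F-type letters (TTTCCCGC, TTTCGCGC, TTTGCCGC or TTTGGCGC, on either strand).
PCNA: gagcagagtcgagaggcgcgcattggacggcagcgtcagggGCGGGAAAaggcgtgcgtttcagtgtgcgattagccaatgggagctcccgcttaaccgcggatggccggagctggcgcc
RRM2: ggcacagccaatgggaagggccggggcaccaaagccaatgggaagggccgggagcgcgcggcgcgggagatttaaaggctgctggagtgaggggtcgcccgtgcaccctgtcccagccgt
MCM2: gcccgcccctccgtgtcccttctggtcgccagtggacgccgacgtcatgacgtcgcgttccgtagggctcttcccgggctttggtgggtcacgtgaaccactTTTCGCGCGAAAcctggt
GINS1: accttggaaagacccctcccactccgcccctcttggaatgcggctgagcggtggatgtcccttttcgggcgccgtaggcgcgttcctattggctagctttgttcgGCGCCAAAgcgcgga
MCM3: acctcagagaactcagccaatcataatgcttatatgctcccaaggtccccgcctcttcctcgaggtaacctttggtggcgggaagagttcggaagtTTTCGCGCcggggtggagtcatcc
CHAF1A: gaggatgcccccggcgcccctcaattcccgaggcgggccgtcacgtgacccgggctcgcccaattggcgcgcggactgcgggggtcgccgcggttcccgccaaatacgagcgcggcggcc
These lie at chr20:5126603-5126722 (minus strand) for PCNA, chr2:10122639-10122758 (plus strand) for RRM2, chr3:127598311-127598430 (plus strand) for MCM2, chr20:25407573-25407692 (plus strand) for GINS1, chr6:52284723-52284842 (minus strand) for MCM3 and chr19:4402540-4402659 (plus strand) for CHAF1A. In MCM2 the run TTTCGCGCGAAA holds TTTCGCGC on both strands, overlapping. The RRM2 and CHAF1A promoters held none of these letters. At least 1 E2F-type match stood in 21 of the 38 matched promoter sets (55.3%), against 1090 of 27305 genes (3.99%). CCAAT, on either strand, was in 22 of 38 (57.9%) against 39.7% of genes, and TTTGAA, on either strand, in 1 of 38 (2.63%) against 18.2%. A match describes letters, not a bound site.

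Total counts per library ran from 59913850 to 75838597, mitochondrial genes took 4.48% to 6.06% of them, and all 44 members were among the 22179 genes that passed the filter on low counts. The colon epithelial markers EPCAM, KRT8, KRT18 and KRT19 were high and CDX1 was at or near 0. The summed level of 12 such markers ran from 9435 to 14093 CPM, counts scaled to library size, and KRT8 and KRT18 made up most of it. CDX2 (4.44 to 12.2 CPM) and CEACAM5 (2.42 to 9.58 CPM) were low. PTPRC, the pan-leukocyte gene, was at 0 in every library but control library 1, where it was at 0.0551 CPM. The 5 leukocyte genes, PTPRC among them, summed to 9.16 to 12.97 CPM, so others of them had counts in every library. Of the markers of other cells, the 5 endothelial genes summed to 1.16 to 47.3 CPM and the 8 fibroblast genes to 2.53 to 46.3 CPM. Library sizes for CPM were corrected with TMM factors (trimmed mean of M values), and log2 changes carry the standard error of edgeR's quasi-likelihood test. "Called" means a Benjamini-Hochberg adjusted p below 0.05 over all 22179 genes.

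The summed level of the 44 genes was lowest with either compound alone and highest when a compound was combined with TNF. It was 3746, 4356 and 3407 CPM in the controls, 2524 and 2527 CPM in ferrostatin-1, and 2857 and 3013 CPM in liproxstatin-1. The sums were 4142 and 4478 CPM in TNF, 5062, 4873 and 4886 CPM in TNF with ferrostatin-1, and 4920 and 4986 CPM in TNF with liproxstatin-1. The libraries with a compound alone lay below every control, and those with TNF and a compound lay above every other library. The mean ratio to control had a median over members of 0.634 in ferrostatin-1, 0.762 in liproxstatin-1, 1.11 in TNF, 1.29 in TNF with ferrostatin-1 and 1.23 in TNF with liproxstatin-1. The group with the lowest mean was ferrostatin-1 for 41 members and TNF for 3. The highest mean was in TNF with ferrostatin-1 for 19 members, in TNF with liproxstatin-1 for 19, in TNF for 5 and in control for 1. Within the controls, library 2 was the highest for 41 members and library 3 the lowest for 39.

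Other genes separated libraries within and between these groups. KRT81, KRT7, CXCL5, SERPINB2 and INHBA were picked because they set libraries apart in earlier results of these data. Their sum was 140 to 146 CPM in the controls and 143 and 172 CPM with TNF. They summed to 172 and 11.1 CPM with ferrostatin-1, to 14.6 and 47.6 CPM with liproxstatin-1, to 14.4 to 16.7 CPM with TNF and ferrostatin-1, and to 48.6 and 15.5 CPM with TNF and liproxstatin-1. Each library with a compound except ferrostatin-1 library 1 was thus below every control and TNF library, and 3 of the 5 genes were called lower in TNF with ferrostatin-1 against TNF. Because the genes were picked for separating libraries, neither the separation nor these calls count as a test. The ferrostatin-1 libraries, far apart in these genes and in the endothelial markers (1.16 and 38.6 CPM), had nearly equal sums of the 44 genes. Their part in the results was not tested.

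**Figure D1:**
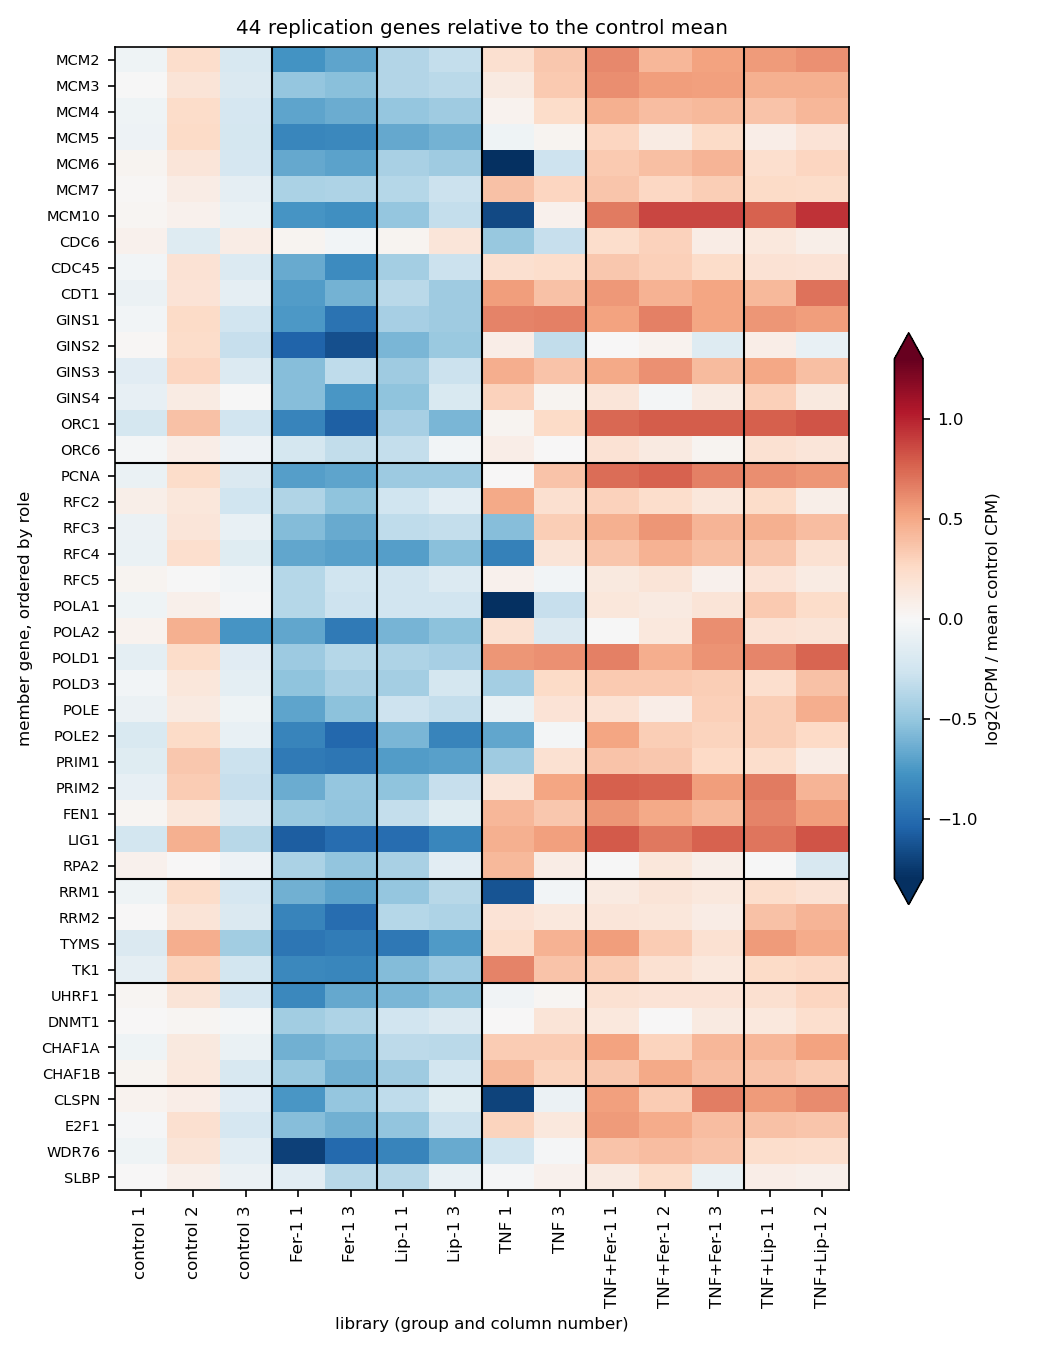
Level of each of the 44 replication genes (rows, grouped by role, lines between roles) in each of the 14 libraries (columns, lines between groups), as log2 of CPM over the mean control CPM. Fer-1 is ferrostatin-1 and Lip-1 liproxstatin-1. Columns with a compound alone are blue for most genes and columns with TNF and a compound are red, and TNF library 1 stands apart from TNF library 3 in POLA1, MCM10, CLSPN, RRM1, MCM6 and RFC4.

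Compared per length of transcript, in the authors' deposited FPKM, PCNA was the most abundant member in control cells at 129.6 ± 25.1 (SD, n = 3). The thymidine kinase TK1 followed at 93.3 ± 21.7 and the helicase subunit MCM7 at 89.8 ± 9.32 FPKM (SD, n = 3). The range of TK1 over the controls overlapped those of PCNA and MCM7. At the other end stood the GINS subunit GINS4 at 1.20 ± 0.116, the epsilon polymerase subunit POLE2 at 2.38 ± 0.472, the primase subunit PRIM2 at 2.84 ± 0.752 and the checkpoint mediator CLSPN at 2.91 ± 0.323 FPKM (SD, n = 3). The SD intervals of POLE2, PRIM2 and CLSPN overlapped.

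Ferrostatin-1 alone was compared with control to see its effect on cells without TNF. It lowered 18 members and raised 0, where 0.379% of all tested genes were called lower. The median log2 change was -0.66 over the members and -0.01 over all tested genes. The ribonucleotide reductase subunit RRM2, which makes deoxyribonucleotides, had 173, 193 and 151 CPM in the controls and 95.2 and 86.7 CPM with ferrostatin-1, a log2 change of -0.92 ± 0.10 (adjusted p = 0.00309). The WD-repeat protein gene WDR76 (chromosome 15, 43826980 to 43867018, plus strand, in the deposited table) had 25.8, 30.2 and 24.5 CPM against 11.6 and 13.3 CPM, a log2 change of -1.11 ± 0.13 (adjusted p = 0.00377). Both genes were lower in each ferrostatin-1 library than in any control. All ferrostatin-1 libraries lay below all controls for 42 members, against 17.6% of all tested genes, and the groups overlapped for CDC6 and POLA2. Leaving out control library 1 left 2 members called, and leaving out ferrostatin-1 library 1 or library 3 left 1 each. A model of these groups alone called 0, DESeq2 called 30, and the median stayed below 0 in each of these fits.

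Of the 16 helicase and loading genes 9 fell with ferrostatin-1. MCM5, a ring subunit, had 109, 135 and 96.7 CPM in the controls and 62.9 and 63.2 CPM with the compound, a log2 change of -0.85 ± 0.13 (adjusted p = 0.0163). CDC45 had 63.1, 73.6 and 57.2 CPM against 41.1 and 36.6 CPM (-0.73 ± 0.11 on the log2 scale, adjusted p = 0.0188). No library of the compound reached the control range for either gene. GINS2 showed a log2 change of -1.09 ± 0.17, from 29.3, 34.1 and 23.6 CPM to 14.1 and 13.2 CPM (adjusted p = 0.0189). GINS2 overlaps GSE1 on the opposite strand, which had a mean of 15300 counts against 1746 for GINS2, and the sources used here do not say whether strand was used in counting. MCM2, MCM4, MCM7, CDT1, GINS1 and the origin recognition subunit ORC1 also fell, by 0.41 to 0.96 on the log2 scale. The exception was CDC6, the loading factor of the ring. CDC6 stood at 77.4, 66.3 and 79.2 CPM in the controls and 76.1 and 72.7 CPM with ferrostatin-1, a log2 change of 0.00 ± 0.11 with a 95% interval of -0.23 to 0.23.

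At the fork, 3 of 16 genes fell with ferrostatin-1: the clamp PCNA, the DNA ligase LIG1 and POLE, the catalytic subunit of polymerase epsilon. PCNA had 179.7, 225 and 167 CPM in the controls and 116 and 119 CPM with the compound, a log2 change of -0.70 ± 0.13 (adjusted p = 0.0428). LIG1 had 63.5, 103 and 58.04 CPM against 35.5 and 37.7 CPM, a log2 change of -1.03 ± 0.20 (adjusted p = 0.0432). Control library 2 was well above the other controls for LIG1, and both ferrostatin-1 libraries were below all controls for both genes. The other 13 fork genes had log2 changes of -0.94 to -0.32, all below 0. In nucleotide supply, RRM2 and TK1 fell. TK1, which salvages thymidine, had 167, 221 and 153 CPM against 101 and 100.1 CPM (-0.84 ± 0.14, adjusted p = 0.0287). The thymidylate synthase gene TYMS (-0.92 ± 0.22) and RRM1, the large reductase subunit (-0.66 ± 0.23), were not called. In both, the ferrostatin-1 libraries lay below all controls.

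Of the chromatin genes, UHRF1, DNMT1 and CHAF1A fell and CHAF1B was not called (-0.55 ± 0.12). UHRF1, which reads hemimethylated DNA, had 106, 117 and 89.4 CPM in the controls and 58.1 and 65.6 CPM with ferrostatin-1 (-0.75 ± 0.11, adjusted p = 0.0145). The maintenance methyltransferase DNMT1 had 171, 173 and 167 CPM against 124 and 129 CPM (-0.43 ± 0.08, adjusted p = 0.0446). Of the regulatory genes, WDR76 alone fell. E2F1 had 61.6, 71.6 and 53.3 CPM against 42.4 and 40.3 CPM (-0.59 ± 0.13, adjusted p = 0.0662), and SLBP, which binds histone mRNA, had 88.2, 91.8 and 83.5 CPM against 79.8 and 68.6 CPM (-0.24 ± 0.12, adjusted p = 0.442). Neither was called, although neither group overlapped the other.

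Liproxstatin-1 alone called 0 of the 44 members in edgeR's quasi-likelihood test, where 0.0586% of all tested genes were called in either direction. The median log2 change was -0.39, against -0.02 over all tested genes, 43 members were below 0, and 30 had an unadjusted p below 0.05. DESeq2 called 14 members, all lower, and 4 were called without control library 3. WDR76 had the smallest p, with 14.8 and 17.1 CPM against 25.8, 30.2 and 24.5 CPM in the controls, a log2 change of -0.75 ± 0.13 (adjusted p = 0.0617). UHRF1 followed at 69.1 and 71.9 CPM (-0.56 ± 0.11, adjusted p = 0.0965) and MCM5 at 71.4 and 74.01 CPM (-0.64 ± 0.13, adjusted p = 0.0968). For these genes both liproxstatin-1 libraries were below every control. LIG1 had 37.7 and 41.6 CPM (-0.91 ± 0.20), MCM7 321 and 340.2 CPM (-0.32 ± 0.08) and MCM4 150.5 and 156 CPM (-0.48 ± 0.12), none of them called. Liproxstatin-1 libraries lay below all controls for 38 members, where 17.9% of all tested genes did. CDC6 again stood at the control level, at 76.05 and 82.99 CPM (0.10 ± 0.11).

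**Figure D2:**
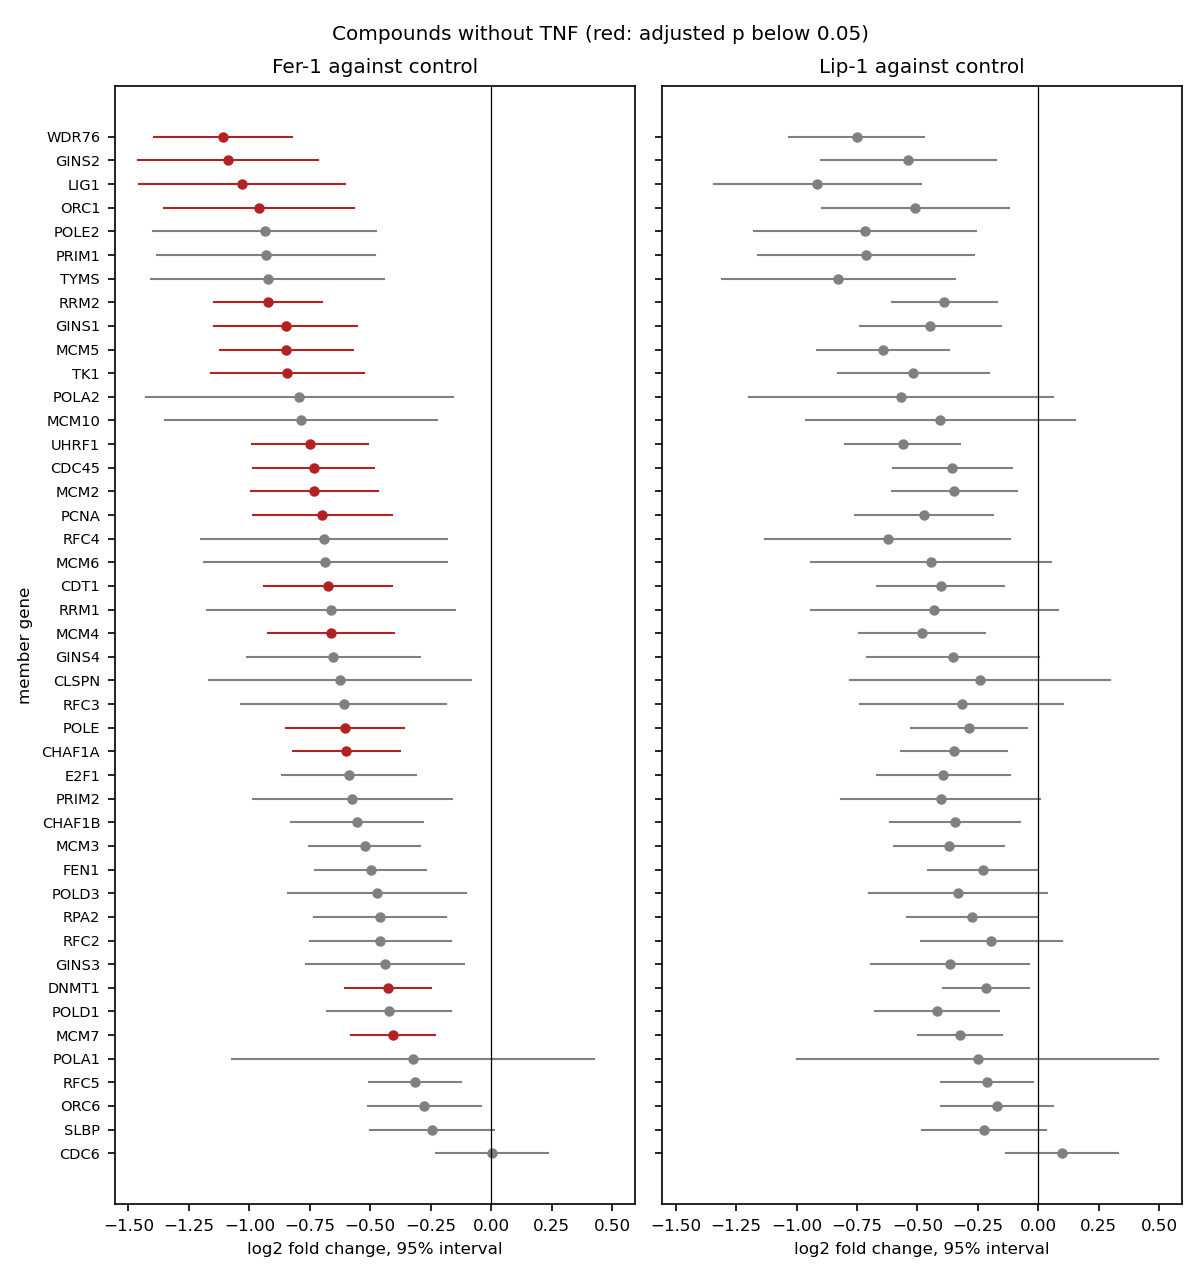
Log2 fold change of each of the 44 genes (vertical axis) with ferrostatin-1 (Fer-1, left) or liproxstatin-1 (Lip-1, right) against control, without TNF, with 95% intervals; the panels share the control libraries. Red marks an adjusted p below 0.05: 18 genes with ferrostatin-1 and 0 with liproxstatin-1, and in each panel 43 of 44 points lie below 0.

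At 20 uM and 72 h the compounds were compared directly in 2 pairings, without and with TNF. Without TNF, the estimates of all 44 members were higher under liproxstatin-1 than under ferrostatin-1, by 0.00 to 0.55 on the log2 scale (median 0.22, against -0.01 over all tested genes), yet 0 were called, where 0.104% of all tested genes were. RRM2 had the smallest p, at 133 and 130.4 CPM with liproxstatin-1 against 95.2 and 86.7 CPM with ferrostatin-1. That was a log2 difference of 0.53 ± 0.11 with a 95% interval of 0.30 to 0.77 (adjusted p = 0.112). The RRM2 values of the groups did not overlap. CDC45 (47.7 and 53.3 against 41.1 and 36.6 CPM, 0.38 ± 0.12, interval 0.11 to 0.65) and GINS2 (19.2 and 20.7 against 14.1 and 13.2 CPM, 0.55 ± 0.18, interval 0.15 to 0.94) came next. MCM2 differed by 0.38 ± 0.13 (interval 0.10 to 0.66), GINS1 by 0.40 ± 0.15 and POLE by 0.32 ± 0.12. Both liproxstatin-1 libraries were above both ferrostatin-1 libraries for 33 members, where 21.1% of all tested genes were. In edgeR's quasi-likelihood test 11 members had an unadjusted p below 0.05, and DESeq2 called 1.

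TNF alone was compared with control, and few members changed. Of the 44 genes 7 rose, where 8.24% of all tested genes did, and 1 fell, where 6.44% did. The median log2 change was 0.15, against -0.02 over all tested genes. POLD1, the catalytic subunit of polymerase delta, had 98.3, 126 and 96.5 CPM in the controls and 159 and 161 CPM with TNF, a log2 change of 0.58 ± 0.11 (adjusted p = 0.00629). GINS1 had 31.3, 38.2 and 27.1 CPM against 50.4 and 50.8 CPM (0.65 ± 0.13, adjusted p = 0.00685). For both genes each TNF library exceeded every control. MCM7 rose from 418, 442 and 381 CPM to 537 and 501 CPM (0.33 ± 0.08, adjusted p = 0.0171). CDT1 rose from 58.4, 69.7 and 56.9 CPM to 90.1 and 80.2 CPM (0.46 ± 0.12, adjusted p = 0.0225). The flap endonuclease gene FEN1 had 179 and 169 CPM with TNF against 135, 147 and 116 CPM (0.39 ± 0.10, adjusted p = 0.0258). TK1 (0.51 ± 0.14) and CHAF1A (0.33 ± 0.10) were the other 2 that rose, and in all 7 the TNF libraries lay above all controls.

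CDC6 was the member that fell with TNF, from 77.4, 66.3 and 79.2 CPM to 52.8 and 60.5 CPM, a log2 change of -0.39 ± 0.11 (adjusted p = 0.0318), and both TNF libraries lay below all controls. The number of members called rested on single libraries. It was 2 without control library 1, 2 without control library 3, 2 without TNF library 1, 15 without control library 2 and 20 (10 higher, 10 lower) without TNF library 3. A model of the TNF and control libraries alone called 0. Fibroblast markers moved in the same comparison: the 8 genes summed to 25.1 and 46.3 CPM with TNF against 13.9, 4.51 and 3.89 CPM in the controls. All 8 had estimates above 0 and 1 was called (the collagen gene COL1A1, 2.01 ± 0.57). Of the 12 colon epithelial markers 3 were called lower (CDH1, VIL1 and LGALS4) and 0 higher, where 6.44% of all tested genes were called lower. LGALS4 had 592, 447 and 595 CPM in the controls and 234 and 151 CPM with TNF. The part of either set of markers in the result was not tested.

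The TNF libraries differed from each other in part of the module. POLA1, the catalytic subunit of polymerase alpha (chromosome X, 24693909 to 24996986, plus strand, in the deposited table), had 5.57 and 19.6 CPM in TNF libraries 1 and 3 against 23.2, 25.3 and 23.8 CPM in the controls. MCM10, a fork protein, had 10.3 and 24.03 CPM, CLSPN 12.7 and 27.8 CPM and RRM1 76.5 and 162 CPM in the same libraries. MCM6 had 39.6 and 83.7 CPM and the clamp loader subunit RFC4 19.9 and 41.3 CPM. In library 1 these 6 genes were more than 2-fold lower than in library 3 (log2 ratios of -1.81 to -1.05), while 29 members in all were lower in library 1 and 15 were higher. The share of members more than 2-fold lower was 13.6%, against 17.5% of all tested genes. POLA1 overlaps EEF1B2P3 on the opposite strand (mean of 549.5 counts against 1552 for POLA1) and RFC4 overlaps EIF4A2 (35927 against 2473 counts), so both values are uncertain.

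The ratio of the TNF libraries also moved with transcript length. Across 10453 genes with a mean of at least 8 CPM, the log2 ratio of library 1 to library 3 had a correlation with log2 length of the longest transcript of r = -0.416. These genes share both libraries and are not independent. The median log2 ratio was 0.29 over genes with transcripts up to 2437 bases and -0.40 over those of at least 5492 bases. The other pairs of libraries of 1 group gave r of -0.35 to 0.13. Over the 44 members r was -0.16, and the part of length in the difference between the TNF libraries was not tested.

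**Figure D3:**
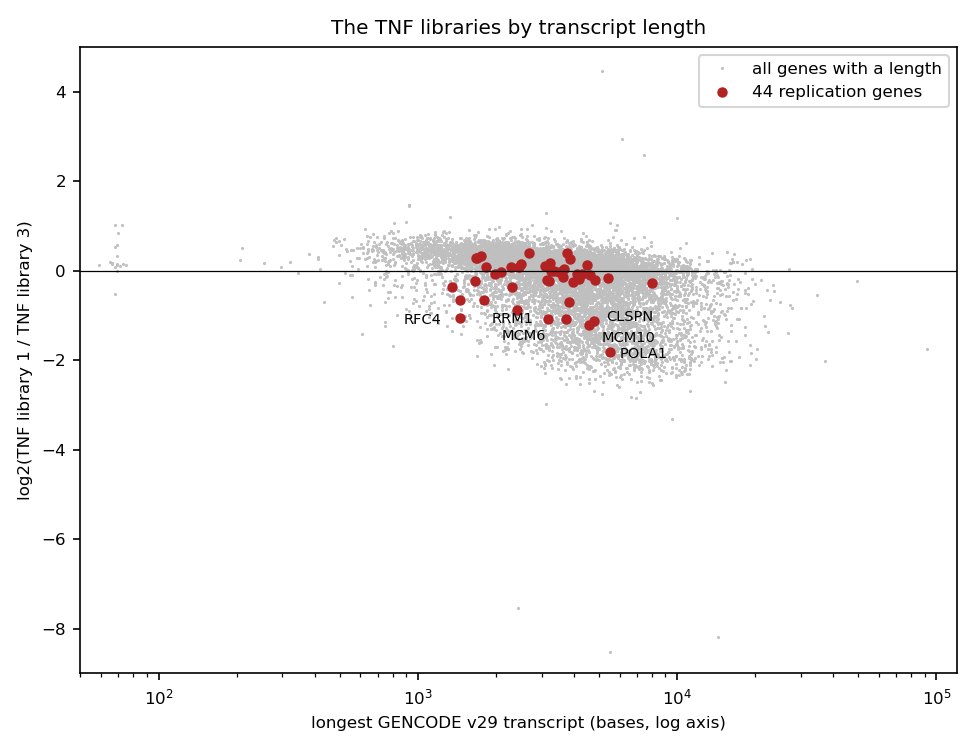
Log2 ratio of CPM in TNF library 1 to TNF library 3 (vertical axis) against the longest GENCODE v29 transcript of each gene in bases (horizontal log axis), for 10453 genes (grey points) and the 44 replication genes (red points). The 6 labelled members lie below -1, with POLA1 lowest at -1.81, and most other members lie close to 0.

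Each compound was then added to TNF, and both comparisons use the same TNF libraries. TNF with ferrostatin-1 raised 6 members over TNF and lowered 0, where 1.77% of all tested genes were called higher. The median log2 change was 0.21, against -0.01 over all tested genes. CDC6 led, with 86.9, 91.3 and 79.7 CPM against 52.8 and 60.5 CPM in TNF, a log2 change of 0.60 ± 0.11 (adjusted p = 0.017). PCNA had 315, 325 and 299.5 CPM against 192 and 247 CPM (0.52 ± 0.13, adjusted p = 0.0446) and WDR76 34.7, 35.4 and 34.7 CPM against 22.5 and 26.6 CPM (0.51 ± 0.13, adjusted p = 0.0424). All 3 libraries with the compound lay above both TNF libraries for each of these genes. MCM10 rose from 10.3 and 24.03 CPM to 36.9, 42.4 and 42.5 CPM (1.24 ± 0.26, adjusted p = 0.0283), MCM6 to 127, 132 and 137 CPM (1.10 ± 0.23, adjusted p = 0.0289) and CLSPN to 42.4, 36.96 and 46.7 CPM (1.05 ± 0.25, adjusted p = 0.039). These 3 are among the genes that were more than 2-fold lower in TNF library 1. In TNF library 3 MCM10, MCM6 and CLSPN had 24.03, 83.7 and 27.8 CPM, below every library with TNF and ferrostatin-1. Without TNF library 1 the estimate changed sign for 5 members, and without TNF library 3 for 4. None of the 6 called members changed sign in either fit, but not all of them kept their call without TNF library 1. Each fit left 1 TNF library. The count of called members was 0, 0 and 1 without libraries 1, 2 and 3 of TNF with ferrostatin-1. It was 3 with no filter on low counts, 13 with DESeq2, 0 with limma voom with quality weights and 0 with a model of these groups alone. The fibroblast markers summed to 4.53, 2.53 and 4.22 CPM with TNF and ferrostatin-1, below the 25.1 and 46.3 CPM of TNF, with 3 of 8 called lower (COL1A1, COL3A1 and DCN). COL1A2, DCN and THY1 were at 0 in all 3 libraries. Of the 12 colon epithelial markers 4 were called lower (KRT8, KRT18, KRT19 and CDX2) and CEACAM5 was called higher. The share of all tested genes called lower is not given here, and the part of these markers in the result was not tested.

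TNF with liproxstatin-1 against TNF called 0 members in edgeR's quasi-likelihood test, where 0.343% of all tested genes were called in either direction, and 16 members had an unadjusted p below 0.05. The median log2 change was 0.21, against 0.01 over all tested genes. MCM10 had 39.4 and 44.5 CPM (1.29 ± 0.28, adjusted p = 0.0632), CDC6 81.7 and 78.3 CPM (0.50 ± 0.12, adjusted p = 0.074) and CLSPN 43.2 and 44.8 CPM (1.12 ± 0.27, adjusted p = 0.0765). For these genes both libraries lay above both TNF libraries. MCM6 (117 and 122 CPM, 0.95 ± 0.25), ORC1 (32.2 and 33.1 CPM against 19.2 and 22.3 CPM, 0.66 ± 0.19) and POLA1 (30.5 and 28.4 CPM, 1.23 ± 0.38) came next, with adjusted p of 0.0835 to 0.107. DESeq2 called 6 members, and 17 were called without TNF library 3 and 2 without TNF library 1. The fibroblast markers summed to 6.45 and 14.7 CPM with TNF and liproxstatin-1, and 0 of 8 were called in edgeR's test, with 1 at an unadjusted p below 0.05.

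The compounds were also compared with TNF present. TNF with liproxstatin-1 against TNF with ferrostatin-1 gave log2 differences of -0.18 to 0.28 over the 44 members (median -0.01, against 0.00 over all tested genes). In edgeR's quasi-likelihood test 0 were called, where 0.766% of all tested genes were, and 1 had an unadjusted p below 0.05. That member was RRM2, at 225 and 234 CPM with liproxstatin-1 and 192, 191 and 185 CPM with ferrostatin-1. Its difference was 0.28 ± 0.10 with a 95% interval of 0.07 to 0.49 (adjusted p = 0.371). The RRM2 libraries of the groups did not overlap. The interval of the difference was -0.41 to 0.16 for PCNA, -0.43 to 0.12 for WDR76, -0.04 to 0.43 for POLE, -0.09 to 0.26 for DNMT1 and -0.13 to 0.37 for POLD1. RPA2, of the single-strand binding complex, had 56.98 and 49.6 CPM with liproxstatin-1 and 57.2, 63.5 and 60.4 CPM with ferrostatin-1 (-0.18 ± 0.12).

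**Figure D4:**
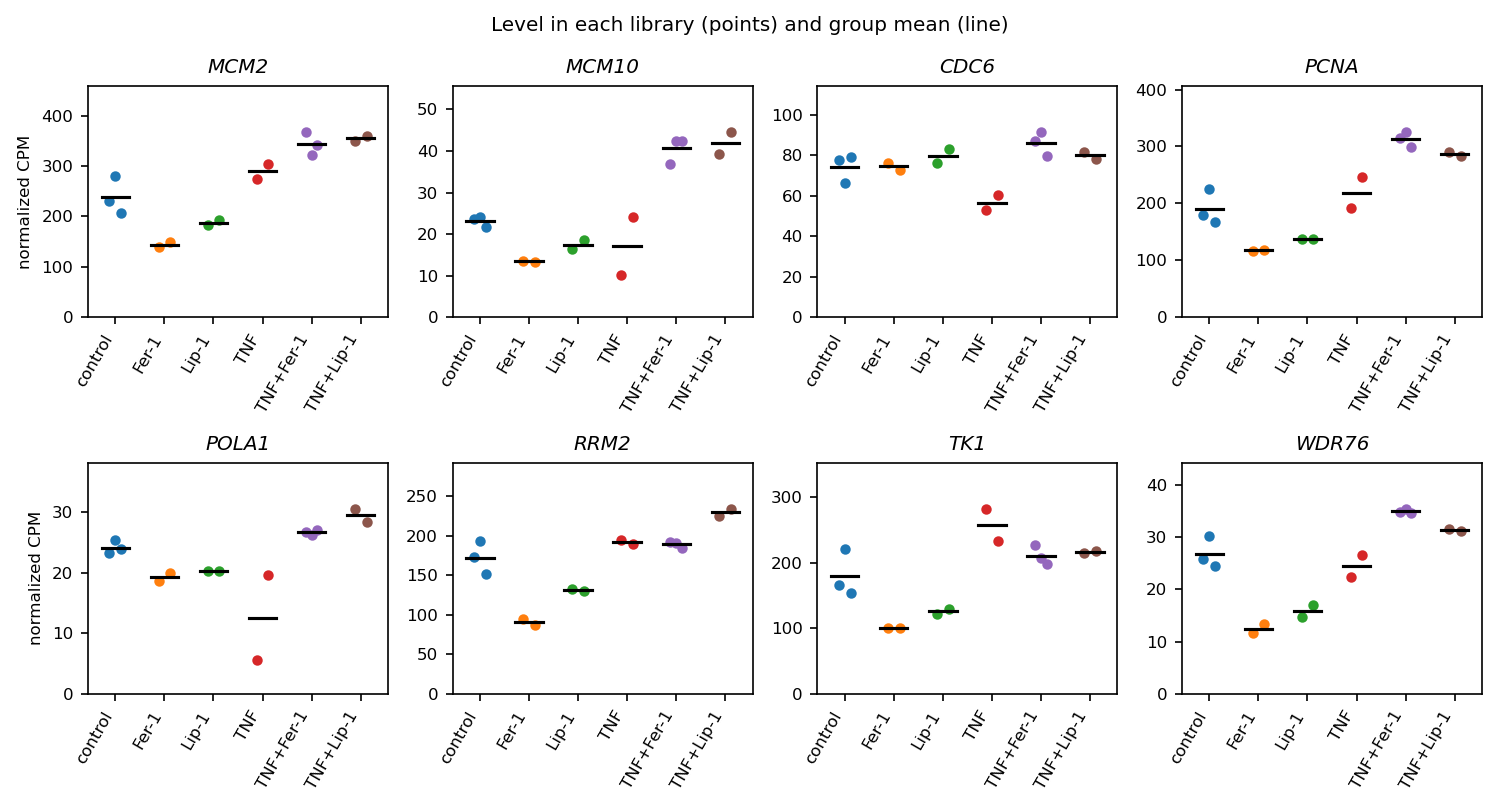
Normalized CPM (vertical axes, from 0) of 8 replication genes in each library (points) with the group mean (black line), by group (Fer-1 is ferrostatin-1, Lip-1 liproxstatin-1). MCM2, PCNA, RRM2, TK1 and WDR76 are lowest with a compound alone, CDC6 is lowest with TNF, and the TNF libraries of MCM10 and POLA1 lie apart (10.3 and 24.03 CPM for MCM10).

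The largest changes came with TNF in cells that received a compound. TNF with ferrostatin-1 against ferrostatin-1 raised 41 of the 44 members and lowered 0, where 8.76% of all tested genes were called higher. The median log2 change was 1.06, against 0.02 over all tested genes. WDR76 had 34.7, 35.4 and 34.7 CPM with both agents and 11.6 and 13.3 CPM with ferrostatin-1 alone, a log2 change of 1.49 ± 0.13 (adjusted p = 2.46e-05). PCNA had 315, 325 and 299.5 CPM against 116 and 119 CPM (1.41 ± 0.14, adjusted p = 4.46e-05), and RRM2 192, 191 and 185 CPM against 95.2 and 86.7 CPM (1.06 ± 0.10, adjusted p = 4.69e-05). The lowest library with TNF and ferrostatin-1 was far above the highest with ferrostatin-1 alone for all 3. MCM2 had 367, 322 and 342 CPM against 139 and 149 CPM (1.26 ± 0.12, adjusted p = 4.82e-05). GINS1 had 46.4, 50.6 and 45.97 CPM against 19.2 and 16.5 CPM (1.42 ± 0.14), and MCM3 271, 259 and 257 CPM against 126 and 122 CPM (1.09 ± 0.11). Among these, the promoters of PCNA, MCM2, GINS1 and MCM3 carried E2F-type letters in the stretches printed above and that of RRM2 did not.

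By role, 15 of 16 helicase and loading genes rose in this comparison, 15 of 16 fork genes, 4 of 4 in nucleotide supply, 4 of 4 in chromatin copying and 3 of 4 regulatory genes. The largest estimates were those of LIG1 (1.78 ± 0.20), ORC1 (1.73 ± 0.19) and MCM10 (1.59 ± 0.27). The genes not called were CDC6 (0.21 ± 0.11), POLA1 (0.47 ± 0.34) and SLBP (0.34 ± 0.12).

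TNF with liproxstatin-1 against liproxstatin-1 raised 33 members and lowered 0, where 7.57% of all tested genes were called higher, with a median of 0.79 against 0.06 over all tested genes. POLD1 had 166 and 181 CPM with both agents and 80.7 and 79.3 CPM with liproxstatin-1 alone, a log2 change of 1.11 ± 0.13 (adjusted p = 0.000277). LIG1 had 121 and 132 CPM against 37.7 and 41.6 CPM (1.67 ± 0.21, adjusted p = 0.000522), and CHAF1A, a histone chaperone subunit, 68.7 and 73.5 CPM against 40.2 and 39.9 CPM (0.83 ± 0.11, adjusted p = 0.000629). The groups did not overlap for these genes. PCNA (290.4 and 284 against 138 and 137 CPM, 1.06 ± 0.14), CDT1 (82.4 and 100.4 against 48.5 and 44.8 CPM, 0.97 ± 0.13) and RRM2 (225 and 234 against 133 and 130.4 CPM, 0.80 ± 0.11) rose as well. All 33 were among the 41 that rose with TNF and ferrostatin-1 over ferrostatin-1, or 80.5% of those 41. These comparisons share no library. With 41 of the 44 members called there, most of the 33 had to be among them, so the overlap counts as no test. The matching overlap over all tested genes is not given here. CDC6, POLA1 and SLBP were called in neither. The promoters of CDC6 and POLA1 held E2F-type letters and that of SLBP did not. Without liproxstatin-1 library 1 the count was 19.

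**Figure D5:**
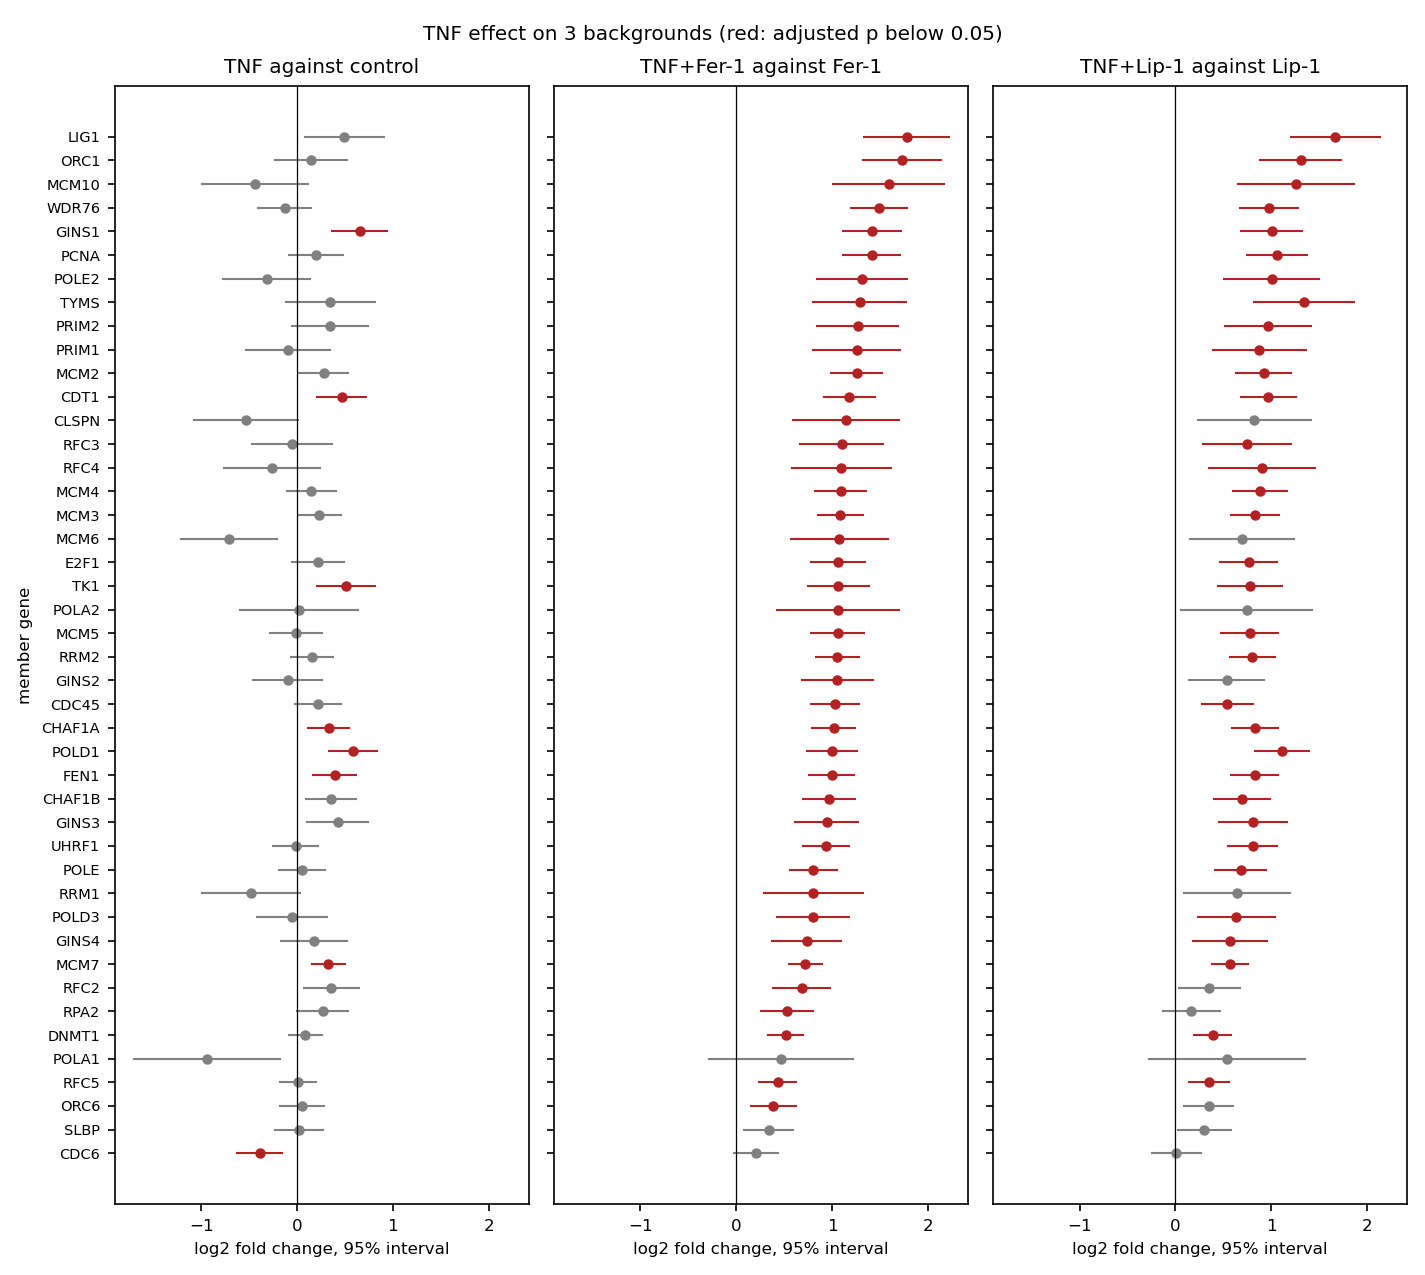
Log2 fold change of each of the 44 genes (vertical axis, ordered by the middle panel) for TNF against control, TNF with ferrostatin-1 against ferrostatin-1 (Fer-1) and TNF with liproxstatin-1 against liproxstatin-1 (Lip-1), with 95% intervals and red where the adjusted p was below 0.05. With TNF alone 7 genes are red above 0 and CDC6 is red below 0, against 41 and 33 red above 0 in the other panels.

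The 4 groups with and without ferrostatin-1 and TNF allow a test of whether the effect of ferrostatin-1 differed with TNF. The interaction was positive for all 44 members (median 0.88, against 0.04 over all tested genes) and called for WDR76, which was the 1 gene called of all tested (0.00451%). WDR76 had an interaction of 1.62 ± 0.18 on the log2 scale (adjusted p = 0.0303). Ferrostatin-1 changed it by -1.11 without TNF and by 0.51 with TNF. PCNA (1.21 ± 0.19, adjusted p = 0.0502), RRM2 (0.90 ± 0.14, adjusted p = 0.0521), ORC1 (1.59 ± 0.25), UHRF1 (0.95 ± 0.15) and MCM5 (1.07 ± 0.18) had the next smallest p-values and were not called. In all, 41 members had an unadjusted p below 0.05, and DESeq2 called 35. The matching shares of all tested genes are not given here. Members called numbered 0 without control library 1, without ferrostatin-1 library 1 or without any 1 of the libraries with TNF and ferrostatin-1. They numbered 10 without control library 2, 9 without control library 3, 21 without TNF library 1 and 35 without TNF library 3. The count was 8 with a stricter filter, 4 with relative log expression scaling and 0 with a model of the 4 groups alone.

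For liproxstatin-1 the interaction with TNF was above 0 for 42 members, with a median of 0.63 against 0.08 over all tested genes. It was called for 0 members and for 0 of all tested genes (0%) in edgeR's quasi-likelihood test, with 32 members at an unadjusted p below 0.05, and for 21 members by DESeq2. The smallest p belonged to WDR76 (1.10 ± 0.19, adjusted p = 0.0859), followed by UHRF1 (0.82 ± 0.16, adjusted p = 0.103). RFC2 and RPA2 were the members below 0. Without TNF library 3 it was called for 26 members, and without TNF library 1 for 5. The estimate lay below 0 without TNF and above 0 with TNF for 35 members in the case of ferrostatin-1 and for 36 in the case of liproxstatin-1. The matching shares of all tested genes are not given here, and both counts use the same TNF libraries. Leaving out TNF library 1 or 3 changed the sign of the estimate with TNF for 5 or 4 members with ferrostatin-1. With liproxstatin-1 it did so for 2 or 4 members.

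Against control, the libraries with TNF and ferrostatin-1 lay above all controls for 29 members, where 18.7% of all tested genes did. Those with TNF and liproxstatin-1 did so for 33 members, where 22.7% of all tested genes did, and neither group lay wholly below the controls for any member. MCM10 had the highest ratio to the control mean in both, at 1.75 and 1.81, with 23.7, 24.1 and 21.8 CPM in the controls. The lowest was GINS2 with TNF and ferrostatin-1 (0.977) and RPA2 with TNF and liproxstatin-1 (0.930).

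Some other genes of the pathway were called lower with ferrostatin-1 alone, where 0.379% of all tested genes were. Of 16 further origin genes 1 fell, the helicase RECQL4 (-0.51 ± 0.09). Of 20 genes of the E2F family and RB pathway 2 fell, the kinase CDK2 (-0.61 ± 0.10) and the repressor E2F8 (-1.02 ± 0.20, adjusted p = 0.05). Among 22 genes of G2 and mitosis 1 fell, the kinase AURKB (-0.56 ± 0.10), with all 22 below 0 and a median of -0.47. None of 19 other fork genes, 12 other nucleotide genes or 20 genes of S phase repair was called, with medians of -0.33, -0.05 and -0.61, and these 3 lists held 6, 5 and 9 genes with an unadjusted p below 0.05 in edgeR's test. With liproxstatin-1 alone 0 genes of these 6 lists were called, where 0.0586% of all tested genes were called in either direction. The lists held 2 to 12 genes each at an unadjusted p below 0.05.

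With TNF alone, 2 of 19 other fork genes rose, TIMELESS (0.46 ± 0.10) and RNASEH2A (0.53 ± 0.13), and SSRP1 fell (-0.24 ± 0.07). In nucleotide supply 3 of 12 rose, among them the phosphorylase TYMP (2.32 ± 0.32) and the triphosphohydrolase SAMHD1 (1.67 ± 0.15), and PAICS fell (-0.51 ± 0.14). Of 16 origin genes TOPBP1 fell (-1.12 ± 0.31), and of 20 E2F and RB genes CDK2 rose (0.42 ± 0.10). Of 20 repair genes 3 rose and 3 fell, with ATRIP at 0.84 ± 0.15 and its partner kinase ATR at -1.68 ± 0.42. In G2 and mitosis 1 of 22 rose, AURKB (0.37 ± 0.10), and 3 fell, among them MKI67 (-0.97 ± 0.13) and CENPF (-1.69 ± 0.41). TNF library 1 stood apart here too: ATR had 8.48 and 36.3 CPM, CENPF 14.9 and 60.7 CPM and TOPBP1 19.9 and 58.1 CPM in TNF libraries 1 and 3, and the 20 repair genes summed to 665.7 and 1412 CPM. Over the 6 lists (109 genes) 10 rose and 9 fell, where 8.24% of all tested genes rose and 6.44% fell. These counts moved when either TNF library was left out, most of all without TNF library 3. Without library 1 the log2 change was -0.98 for ATR and -0.54 for TOPBP1, both still called, CENPF kept its call (adjusted p = 0.00268 in edgeR's quasi-likelihood test) and PAICS lost it (-0.24, adjusted p = 0.152).

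With TNF and ferrostatin-1 over TNF, 1.77% of all tested genes were called higher. Of 20 repair genes 5 rose, including BRCA2 (1.59 ± 0.40) and BARD1 (0.95 ± 0.23). Of 16 origin genes 2 rose, TOPBP1 (1.56 ± 0.31) and DTL (0.90 ± 0.22). PAICS (0.63 ± 0.14) and the RB relative RBL1 (0.94 ± 0.22) rose and the inhibitor CDKN1B fell (-0.45 ± 0.10). The same TNF libraries enter here, with BRCA2 at 4.31 and 16.3 CPM and BARD1 at 8.56 and 17.02 CPM. Without TNF library 1 the log2 change was 0.93 for BRCA2, 0.99 for TOPBP1 and 0.52 for RBL1, each called, and BARD1 (0.54), DTL (0.49), PAICS (0.35), CDKN1B (-0.36) and PLK1 (-0.38) were not called. MKI67 rose (0.87 ± 0.13), PLK1 fell (-0.47 ± 0.09) and 0 of 19 other fork genes were called, with 8 at an unadjusted p below 0.05. With TNF and liproxstatin-1 over TNF the 1 gene called in the 6 lists was MKI67 (1.45 ± 0.14), where 0.343% of all tested genes were called in either direction. For TNF with ferrostatin-1 the 6 lists held 10 higher and 2 lower calls, against 13 and 0 without TNF library 1 and 57 and 18 without TNF library 3. For TNF with liproxstatin-1 they held 13 and 0 without TNF library 1, and 60 and 12 without TNF library 3.

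With TNF and ferrostatin-1 over ferrostatin-1, 8.76% of all tested genes were called higher. In the lists 4 of 16 origin genes, 6 of 19 fork genes and 5 of 12 nucleotide genes rose. So did 12 of 20 E2F and RB genes, 10 of 20 repair genes and 9 of 22 genes of G2 and mitosis. Examples were DTL (1.37 ± 0.22), TIMELESS (0.93 ± 0.10), the kinase DCK (0.78 ± 0.15), E2F2 (1.86 ± 0.26) and the cyclin CCNA2 (1.02 ± 0.20). In the same comparison 1 fork gene, 1 nucleotide gene and 2 E2F and RB genes fell. TNF with liproxstatin-1 over liproxstatin-1 raised 3, 4, 2, 7, 7 and 11 genes of these lists in the same order. Of all tested genes 7.57% were called higher. The polymerase delta subunit POLD4 (-0.96 ± 0.20) and IMPDH2 (-0.48 ± 0.11) fell.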

How the data were processed

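Libraries of poly(A) RNA, strand-marked with dUTP, were read as paired ends, per the labels' protocols. The authors deposited raw counts per gene and FPKM values that they computed, which here only order levels between genes in control cells. Because libraries of 3 groups match titles by group only, 6 FPKM columns were not used. The submitters' processing notes list cutadapt 1.9, HISAT2 2.0.4 and StringTie 1.3.4d beside edgeR and DESeq2 and give no roles. Genome build, annotation, counting program and strand setting: not given in the sources used here. Members that overlap other genes are therefore uncertain (MCM7, GINS2, RFC4, POLA1, POLA2, POLD3, PRIM1, TYMS and CHAF1B).

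Groups came from the labels. The series design states 3 technical replicates a group, and 14 libraries were analysed here. Library numbers are those of the count columns, which for ferrostatin-1, liproxstatin-1 and TNF are 1 and 3 where titles say 1 and 2. Within groups every pair of libraries differed beyond sampling noise (chi-square per degree of freedom of at least 16.1). The TNF pair differed most, at 226, where the other pairs gave 16.1 to 82.5.

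Deposited counts were scaled by TMM and filtered by filterByExpr in edgeR 4.0.16 under R 4.3.3. A single model of all 6 groups gave 11 comparisons, each by edgeR's quasi-likelihood test with Benjamini-Hochberg adjustment over 22179 genes. Other settings tried were RLE (relative log expression) scaling, tests with no filter or with genes kept at 1 CPM in 3 libraries, DESeq2 1.42.0, models of the compared groups alone, a replicate block, and each library left out. Voom with quality weights in limma 3.58.1 was added after seeing the data, as was leaving out each TNF library for the other lists. The model was tested on simulated counts. Values in full were given for the 6 members with the smallest p in each of the first 9 comparisons and the 2 with the highest CPM per role, and for other lists up to 3 called genes. The members, lists and rules were chosen with earlier results of these data known, so no p-value was adjusted over a list.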

Additional observations from a re-analysis of the deposited data

Results flagged for a closer look

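WDR76 was the member whose response to ferrostatin-1 differed between cells without and with TNF by a test of that difference. Its interaction was 1.62 on the log2 scale (edgeR's quasi-likelihood test, adjusted p = 0.0303). The gene was lower with ferrostatin-1 in 2 of 2 libraries without TNF and higher in 3 of 3 libraries with TNF, against all libraries of the matching group without the compound. The call ended without control library 1, without ferrostatin-1 library 1 and without each library of TNF with ferrostatin-1.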

How the results depend on the processing

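No called member and no called gene of the 6 other pathway lists changed direction in the alternatives run, but counts of called members did move. The share of all tested genes called under these settings, or at an unadjusted p below 0.05, is not given here. These counts alone therefore do not set the members apart from all genes. For TNF against control (8 in all) the compared groups alone gave 0, limma voom 3, and leaving out 1 library 2 to 20. For ferrostatin-1 against control (18) DESeq2 gave 30, the compared groups alone 0, limma voom 37, and leaving out 1 library 1 to 25. For liproxstatin-1 against control (0) the stricter filter gave 1, DESeq2 14, limma voom 29, and leaving out 1 library 0 to 4. For TNF with ferrostatin-1 against TNF (6) no filter gave 3, DESeq2 13, the compared groups alone 0, limma voom 0, and leaving out 1 library 0 to 17. For TNF with liproxstatin-1 against TNF (0) DESeq2 gave 6 and leaving out 1 library 0 to 17. For liproxstatin-1 against ferrostatin-1 (0) DESeq2 gave 1, the compared groups alone 1 and limma voom 2, and with TNF (0) the compared groups alone and limma voom gave 1 each. TNF with ferrostatin-1 against ferrostatin-1 (41) stayed at 32 to 43, and TNF with liproxstatin-1 against liproxstatin-1 (33) at 19 to 42, with 19 to 24 when 1 library was left out. The ferrostatin-1 interaction (1) gave 4 with relative log expression, 8 with the stricter filter, 35 with DESeq2, 0 with the compared groups alone, 4 with limma voom and 0 to 35 when 1 library was left out. The liproxstatin-1 interaction (0) gave 21 with DESeq2, 4 with limma voom and 0 to 26 when 1 library was left out. Where leaving out a library left 1 in a group, that library was assumed to vary like the others. The causes of these shifts were not tested. Deviations of same-numbered libraries had r of -0.27 to 0.247 over 28 pairs, 2 of them above 0.1. In groups of 2 libraries the deviations mirror each other, so these pairs are not independent. They cannot settle whether library numbers pair the samples. A replicate block gave 6 members for TNF against control, 2 for ferrostatin-1 against control, 1 for TNF with ferrostatin-1 against TNF, 38 and 25 for TNF within ferrostatin-1 and liproxstatin-1, and 0 in the other 6 comparisons. Every member had at least 245 counts in every library.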

Other observations

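Genes of G2 and mitosis (22 genes, among them AURKB, CCNB1, UBE2C and MKI67) were summed in the same way. Their summed level was 2235, 2551 and 2099.7 CPM in the controls, 1773 and 1662 CPM with ferrostatin-1, 1859 and 1824 CPM with liproxstatin-1, and 1765 and 2268 CPM with TNF. It was 2345, 2431 and 2485 CPM with TNF and ferrostatin-1, and 2966 and 2822 CPM with TNF and liproxstatin-1, where both libraries lay above every other library. The proliferation marker MKI67 had 376, 311 and 334 CPM in the controls and 288 and 297 CPM with ferrostatin-1. Both liproxstatin-1 libraries lay within its control range, at 348 and 326 CPM. MKI67 had 163 and 184 CPM with TNF, 304, 274 and 371 CPM with TNF and ferrostatin-1, and 469 and 482 CPM with TNF and liproxstatin-1.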
